A study of Mus musculus with 2 samples.

Results

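The 38 genes described here direct the first cell fate decisions of the mouse embryo. They were chosen by symbol, with earlier results of these data known. They comprise 15 pluripotency genes, 10 trophectoderm genes, 7 primitive endoderm genes and 6 genes of embryonic signaling. Of these, 21 appear under their current symbol in the deposited list of peaks, with 47 of its 8226 peaks. A further 2 members, Tfap2a and Tfap2c, appear under an older symbol or by accession alone, with 5 peaks, which makes 23 of 38 members with 52 peaks. The other 15 members have no row.

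DamID fuses a chromatin protein to Dam, a bacterial enzyme that methylates adenine within GATC, so that the sites the protein visits can be recovered from the DNA. The Dnmt1-Dam library came from embryos injected with a Dnmt1-V5-Dam construct, and the Dam-only library from embryos injected with Dam lacking a partner. Each library was made from 50 pooled embryos, which were harvested at the 4- to 8-cell stage and came from zygotes of hormone-primed BCF1 females (a C57BL/6 x CBA/CA cross) aged 5 weeks. Each group is 1 library, so no value has a replicate check and no test between the libraries was made. For each peak the authors' table gives a mm9 position, a signal height in either library and an assigned gene. The heights are whole numbers whose scaling is not stated, and every Dnmt1-Dam height is at least 7 and every Dam-only height at least 1. The sequencing depth of the libraries is not stated.

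The 4- to 8-cell stage precedes the split of the embryo into lineages. Outer cells of the later morula become trophectoderm, the forerunner of placenta, while inner cells become epiblast, which holds pluripotency, or primitive endoderm, the forerunner of yolk sac. Dnmt1 is the maintenance methyltransferase that copies CpG methylation onto newly made DNA strands. Methylation in the mouse embryo is low during cleavage, and some lineage genes, Elf5 among them, are later methylated in one lineage and not in the other.

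No member had a peak in its proximal promoter, which the table sets at 3 kb before to 1 kb after the start site. With 0 of 47 peaks, the exact 95% Clopper-Pearson interval reaches 7.55%, and the whole list has 2.66% of its peaks there, so a difference was not detectable with this number. Dam can act only where GATC occurs, and Dnmt1 acts on CpG. The 250 bases before the start site were therefore read for both in the RefSeq promoter table (GRCm38.p6), which held 39 start sites for 26 of the 38 members. GATC, which reads the same on both strands, occurred in 17 of the 39 windows (43.6%), against 41.9% of all 32851 windows of this length in the table. It occurred in 9 of 22 windows of members with a peak and in 8 of 17 windows of members without one. The median number of CG dinucleotides was 8 per window for the members and 6 for all windows. The windows of 4 pluripotency genes are shown, GATC in capitals, because they differ widely in CG content and include genes with and without an assigned peak. Pou5f1 is shown at the first and Nanog at the second of their 2 start sites in the table.
Pou5f1 (chr17:35505782-35506031, plus strand): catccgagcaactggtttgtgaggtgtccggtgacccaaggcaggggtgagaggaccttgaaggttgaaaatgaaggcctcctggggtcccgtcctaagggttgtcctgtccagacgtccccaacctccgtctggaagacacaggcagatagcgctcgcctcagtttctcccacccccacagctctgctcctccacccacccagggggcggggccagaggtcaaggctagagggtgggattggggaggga
Nanog (chr6:122707315-122707564, plus strand): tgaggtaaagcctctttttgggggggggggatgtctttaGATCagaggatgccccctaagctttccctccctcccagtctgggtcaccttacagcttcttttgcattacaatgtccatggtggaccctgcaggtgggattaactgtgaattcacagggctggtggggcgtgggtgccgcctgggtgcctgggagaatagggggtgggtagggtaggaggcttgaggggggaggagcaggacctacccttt
Sox2 (chr3:34649745-34649994, plus strand): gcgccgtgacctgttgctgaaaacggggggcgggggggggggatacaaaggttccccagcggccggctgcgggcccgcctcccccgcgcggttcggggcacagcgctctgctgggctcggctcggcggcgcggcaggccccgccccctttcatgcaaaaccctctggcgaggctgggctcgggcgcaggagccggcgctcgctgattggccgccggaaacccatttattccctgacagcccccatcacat
Zfp42 (chr8:43307010-43307259, minus strand): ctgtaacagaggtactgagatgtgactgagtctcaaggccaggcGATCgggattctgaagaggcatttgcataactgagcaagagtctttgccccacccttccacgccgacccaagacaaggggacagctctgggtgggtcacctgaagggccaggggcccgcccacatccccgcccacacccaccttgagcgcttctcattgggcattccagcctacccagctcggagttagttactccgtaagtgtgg
The Sox2 window held 27 CG and no GATC, and the Pou5f1 window 8 CG and no GATC. The Nanog window held 2 CG and 1 GATC, and the Zfp42 window 9 CG and 1 GATC. The windows not shown held 1 GATC for Pou5f1 and 2 for Nanog. The absence of a match says only that these letters are not in the window. The 250 bases are only part of the proximal promoter class, so these counts do not show whether the class holds GATC.

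Members had an assigned peak more often than genes at large, and the difference was in peaks outside the genes. A peak at any distance was assigned to 23 of 38 members (60.5%, 95% exact Clopper-Pearson interval 43.4 to 76.0), while the background of all 21035 genes with a curated messenger RNA was 22.7%. By current symbol alone it was 21 of 38 (55.3%), where the background was 17.9%. Peaks inside the gene were found for 5 of 38 members (13.2%, 4.41 to 28.1), close to the background of 11.7%, so the members did not stand out there. Within 10 kb of the gene it was 7 members (18.4%) at a background of 14.7%. Within 100 kb it was 17 members (44.7%, 28.6 to 61.7) at a background of 20.3%. Peaks over 100 kb outside the gene were assigned to 13 members (34.2%, 19.6 to 51.4) at a background of 4.73%. These intervals cover counting error only, and not the choice of members, which was made with earlier results of these data known. A promoter peak, proximal or distal, was assigned to 2 members (5.26%, 0.644 to 17.7) at a background of 2.42%.

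**Figure D1:**
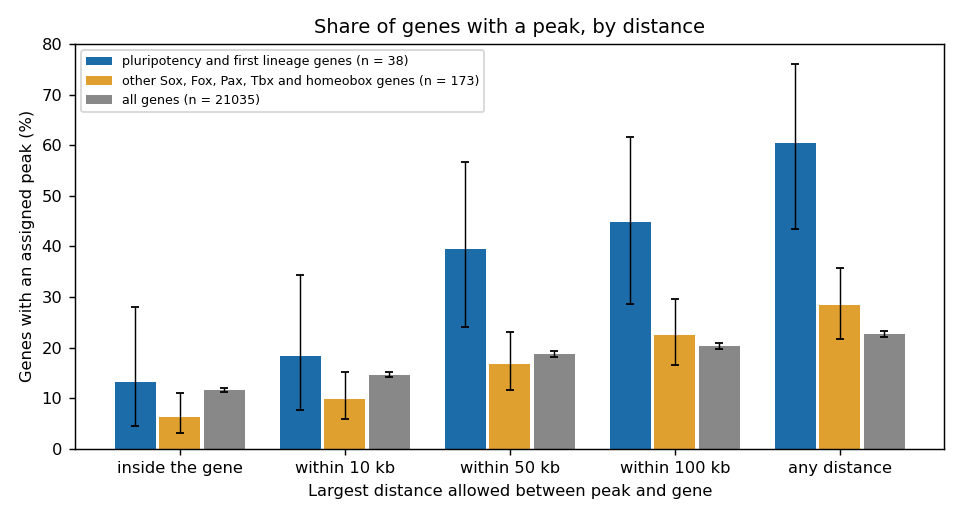
Share of genes with an assigned peak (y axis, percent) when only peaks up to a given distance from the gene count (x axis), for the 38 pluripotency and first lineage genes, 173 other Sox, Fox, Pax, Tbx and homeobox genes and all 21035 genes; error bars are exact 95% intervals. The members are close to all genes for peaks inside the gene (13.2% and 11.7%) and far above them at any distance (60.5% and 22.7%).

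A second set of developmental regulators was set beside the members, namely 173 other genes named Sox, Fox, Pax, Tbx, Hox, Lhx, Dlx, Nkx, Irx or Pou or after the sine oculis family. Of these, 49 had an assigned peak (28.3%, 21.7 to 35.7), and 18 (10.4%, 6.28 to 15.9) had one over 100 kb away. Their shares lay between those of the members and of all genes in both counts.

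Counted by peaks, 25 of the 47 (53.2%, 38.1 to 67.9) were over 100 kb outside the assigned gene, against 23.1% of the whole list and 43.0% (32.8 to 53.7) of the 93 peaks of the other regulators. Only 6 (12.8%, 4.83 to 25.7) lay inside the gene, against 43.0% of the whole list. For the other regulators it was 17 of 93 (18.3%), with an interval that overlaps that of the members. The median distance to the gene was 118 kb for the members' peaks, 58.7 kb for those of the other regulators and 6.92 kb for all peaks. The 25 distant peaks came from 11 members, and 19 of them from the 5 members Tbx3, Klf4, Sox2, Gata3 and Foxa2. The median length of the genes in question was 11.9 kb for the members, against 41.8 kb for all assigned genes. Per Mb of gene body, the 23 members held 8.45 peaks (exact Poisson interval 3.10 to 18.4, from 6 peaks), against 7.29 (7.05 to 7.53) for all 4766 genes with a peak, so no lower density inside the members was seen. Each of the 52 peaks lay nearer to the start site of its member than to that of any other gene in the list. The same held for 7806 of all 8226 peaks and their assigned genes. Genes without a peak have no position in the list, so a nearer gene among them would be missed. Measured to the nearest end of a gene, 3 of the 52 were closer to another gene in the list. These were the Sox7 peak, 15.6 kb from Sox7 and 8.30 kb from Pinx1, and a pair of Tbx3 peaks, 529 kb from Tbx3 and 376 kb from Med13l. The surroundings of the members held about as many peaks as those of other genes with a peak. A median of 5 peaks (interquartile range 3.5 to 6) lay within 500 kb of the start site whatever their gene, and the median for all 4766 genes with a peak was also 5 (3 to 6). The peaks assigned to the gene itself within that window had a median of 2 for members and 1 for all genes.

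**Figure D2:**
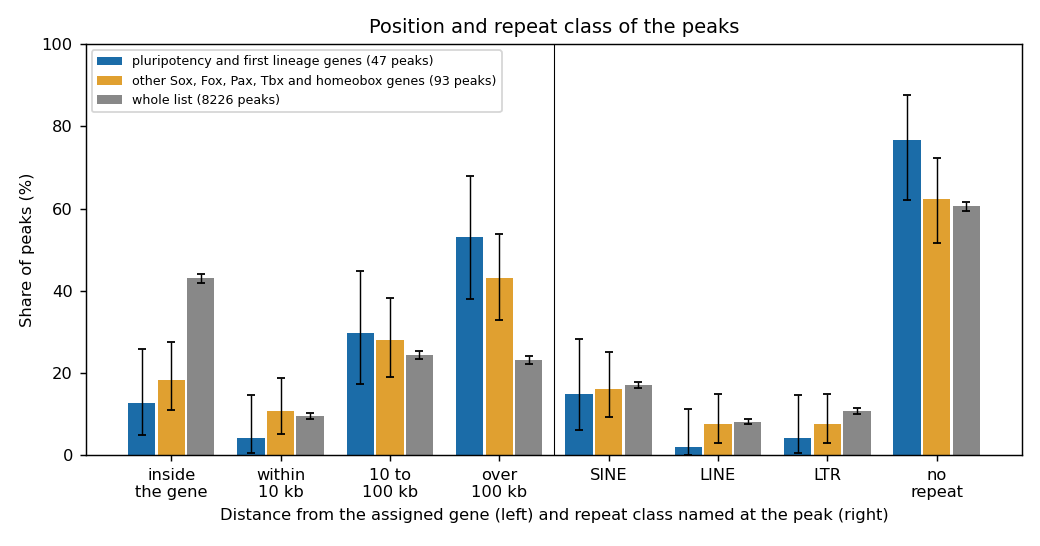
Share of peaks (y axis, percent) by distance from the assigned gene and by repeat class named at the peak, for the 47 peaks of pluripotency and first lineage genes, 93 peaks of other Sox, Fox, Pax, Tbx and homeobox genes and all 8226 peaks; error bars are exact 95% intervals. Over 100 kb the members hold 53.2% of their peaks and the whole list 23.1%, and peaks with no repeat named make up 76.6% and 60.5%.

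Heights of the members' peaks were like those of the list. The median Dnmt1-Dam height was 9 (interquartile range 7 to 12) for the members and 9 (7 to 11) for all peaks. The Dam-only height was 1 at 38 of the 47 member peaks (80.9%, 66.7 to 90.9), against 75.8% of all peaks. Dam-only heights were scaled so that their sum over the listed peaks equaled the Dnmt1-Dam sum, and 1 was added to both. The median log2 ratio was then 0.14 (interquartile range 0.05 to 0.50), and for all peaks it was 0.21. This scaling removes the general difference between the libraries within the list, so the ratio does not measure enrichment over Dam-only. With unscaled heights the median was 2.17 for the members and for all peaks. Heights of 15 or more were reached by 7 member peaks (14.9%, 6.20 to 28.3), an interval that includes the 8.66% of all peaks. For the other regulators the share was lower, 3.23% (0.670 to 9.14). These intervals overlap, which does not show that the shares are equal, and the difference was not tested.

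**Figure D3:**
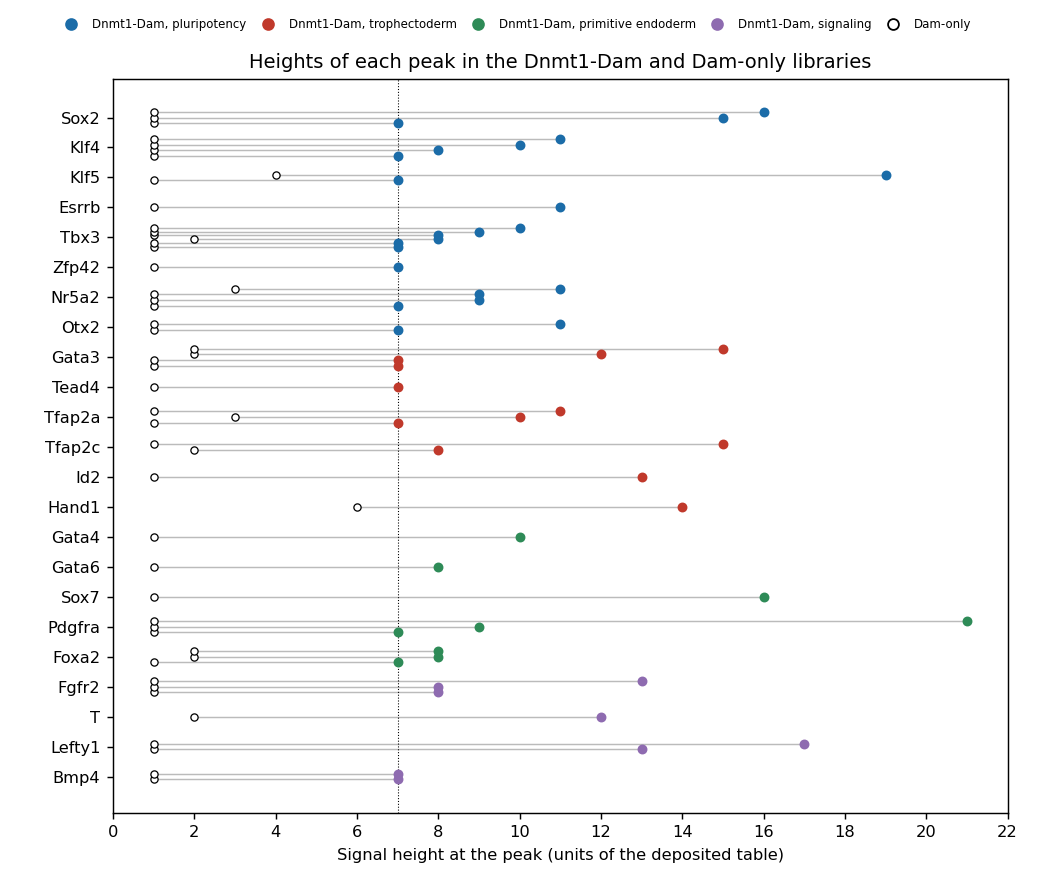
Signal height (x axis, units of the deposited table) of each peak in the Dnmt1-Dam library (filled, coloured by role) and the Dam-only library (open), joined by a line, for the 23 members with a peak. The dotted line marks 7, the lowest Dnmt1-Dam height listed; Pdgfra reaches 21, Klf5 19 and Lefty1 17, and Hand1 has the highest Dam-only height, 6.

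Among the pluripotency genes, 8 of 15 had a peak (53.3%, 26.6 to 78.7, against 22.7% of all genes), and these 8 held 23 peaks. Sox2, an HMG-box factor required for epiblast, had 3 peaks, all beyond its 3′ end on chromosome 3. A peak at position 34738181, 187 kb beyond the gene, had a height of 7 in Dnmt1-Dam and 1 in Dam-only. A pair of peaks 70 bp apart, at 34863411 and 34863481 and 312 kb beyond the gene, had heights of 15 and 16 in Dnmt1-Dam and 1 and 1 in Dam-only. The pair shares its surroundings and was counted as 1 run when close neighbors were merged. No repeat was named at any of the 3.

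Klf4 and Klf5 are Krüppel-like factors of the inner cell mass. All 4 peaks of Klf4 were upstream, at 404, 474, 523 and 553 kb, with Dnmt1-Dam heights of 8, 10, 11 and 7 and a Dam-only height of 1 at each. A SINE was named at the second and a DNA transposon with an LTR at the fourth. Klf5 had the highest peak of the pluripotency genes, 19 in Dnmt1-Dam against 4 in Dam-only, at position 99699261 of chromosome 14. It lay inside the gene, 1.35 kb downstream of the start site and thus just past the 1 kb limit of the proximal promoter class. A height of 19 or more was reached by 278 peaks of the list (3.38%). The other Klf5 peak, 186 kb beyond the gene, had 7 in Dnmt1-Dam and 1 in Dam-only.

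Tbx3, a T-box factor of naive pluripotency, had 6 peaks, more than any other member, and all were upstream. They formed 4 runs, at 118, 348, 360.5 and 529 kb, and 2 of these runs held 2 peaks each, 230 and 120 bp apart. Their Dnmt1-Dam heights ran from 7 to 10, and the Dam-only heights were 1 at 5 peaks and 2 at the sixth. None exceeded 11, the upper quartile of the list. Nr5a2, a nuclear receptor that acts on Pou5f1, had 4 peaks. Both of its gene body peaks had 9 in Dnmt1-Dam and 1 in Dam-only, at 3.34 and 69.6 kb from the start site, the nearer one in a SINE in the shelf of a CpG island. Its upstream peaks had 7 against 1 at 20.2 kb and 11 against 3 at 319.8 kb.

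Esrrb, an orphan nuclear receptor, had 1 peak of 11 in Dnmt1-Dam and 1 in Dam-only, inside the gene at 77.9 kb. Otx2, a homeobox factor of the epiblast after implantation, had peaks of 7 and 11 at 26.4 and 56.6 kb beyond its end, with 1 in Dam-only at both. Zfp42 (Rex1), a zinc finger marker of the naive state, had 1 peak at the lowest height, 7 against 1, 30.5 kb upstream. Pou5f1, Nanog, Klf2, Tfcp2l1, Prdm14, Sall4 and Lin28a had no row. Of the core pluripotency factors, Sox2 had peaks, all over 100 kb outside the gene, and Pou5f1 and Nanog had none. Among all genes 22.7% had an assigned peak, so the lack of one does not set a gene apart.

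Of the 10 trophectoderm genes, 6 had a peak (60%, 26.2 to 87.8, against 22.7% of all genes), among them the members found under an older name. Gata3, a zinc finger factor that induces trophoblast genes, had 4 peaks, all beyond its 3′ end on chromosome 2. At 65.7 kb the height was 15 in Dnmt1-Dam and 2 in Dam-only, and at 447 kb it was 12 and 2. At 248 kb, in a SINE, and at 496 kb, with no repeat, it was 7 and 1. Gata2 had no row.

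Tfap2c and Tfap2a encode AP-2 factors of trophectoderm. Tfap2c had a peak of 8 in Dnmt1-Dam and 2 in Dam-only in its distal promoter, 6.89 kb upstream, at a SINE in the shelf of a CpG island. Its other peak, 102 kb beyond the gene, had 15 against 1. Tfap2a had peaks of 10 against 3 at 20.3 kb upstream, in SINE sequence, and of 11 against 1 and 7 against 1 at 109 and 594 kb beyond the gene. All 5 peaks of the AP-2 genes lay outside the gene.

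Hand1, a basic helix-loop-helix factor of trophoblast giant cells, had the highest Dam-only height of any member peak. Its peak 30.6 kb upstream had 14 in Dnmt1-Dam and 6 in Dam-only, a ratio of 2.33, the lowest among the members. Id2, an inhibitor of such factors and an early marker of outer cells, had 13 against 1 at 449 kb upstream. Tead4, the Hippo pathway partner that switches on Cdx2, had 7 against 1 inside the gene, at 13.1 kb. Cdx2, Eomes and Elf5 had no row. These are 3 of the best known trophoblast regulators, Elf5 being the one gated by methylation, but most genes of the background also lacked a peak.

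Of the 7 primitive endoderm genes, 5 had a peak (71.4%, 29.0 to 96.3, against 22.7% of all genes), and none of their 9 peaks lay inside a gene. Counted by gene, the interval of 0 of 7 reaches 41.0% and includes the 11.7% of all genes with a peak inside. Pdgfra, a receptor tyrosine kinase that marks primitive endoderm, had the highest peak of all members, 21 in Dnmt1-Dam against 1 in Dam-only, at position 75688011 of chromosome 5. A height of 21 or more was reached by 169 peaks of the list (2.05%). It lay 93.8 kb beyond the 3′ end, flanked by peaks of 7 against 1 at 36.1 kb, in an LTR element, and of 9 against 1 at 158 kb. Kit, a related receptor gene, was the next gene in the list on that side, 283 kb from the highest peak.

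Sox7, an HMG-box factor of endoderm, had a peak of 16 in Dnmt1-Dam and 1 in Dam-only 15.6 kb upstream. Gata4 had 10 against 1 at 83.5 kb upstream, in the shelf of a CpG island. Gata6, which starts the primitive endoderm programme, had 8 against 1 at 160.0 kb upstream, in a SINE. Foxa2, a forkhead factor of endoderm, had 3 low peaks, of 8 against 2 and 7 against 1 at 139.8 and 157 kb upstream and of 8 against 2 at 326 kb beyond the gene. Sox17 and Hnf4a had no row.

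Of the 6 signaling genes, 4 had a peak (66.7%, 22.3 to 95.7), an interval that includes the 22.7% of all genes. These genes held the only pair of member peaks in a promoter class under a current name. Lefty1, a secreted inhibitor of Nodal, had peaks of 13 and 17 in Dnmt1-Dam and 1 and 1 in Dam-only, 100 bp apart at positions 182857781 and 182857881 of chromosome 1. These are 7.39 and 7.29 kb upstream, within the distal promoter class (10 to 3 kb upstream), with no repeat and no CpG island context named. A height of 17 or more was reached by 430 peaks (5.23%). Nodal itself had no row.

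Fgfr2, a receptor of Fgf4 in the early embryo, had a peak of 13 in Dnmt1-Dam and 1 in Dam-only inside the gene, 18.0 kb from the start site. Its other peaks, of 8 against 1 each, lay 53.4 and 81.5 kb beyond the gene, the farther in a SINE. Fgf4 had no row. T (brachyury), a T-box factor of mesoderm, had 12 against 2 at 43.9 kb beyond the gene. Bmp4, a ligand of mesoderm and germ cell induction, had peaks of 7 against 1 at 27.7 and 104 kb upstream, both at the lowest height.

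**Figure D4:**
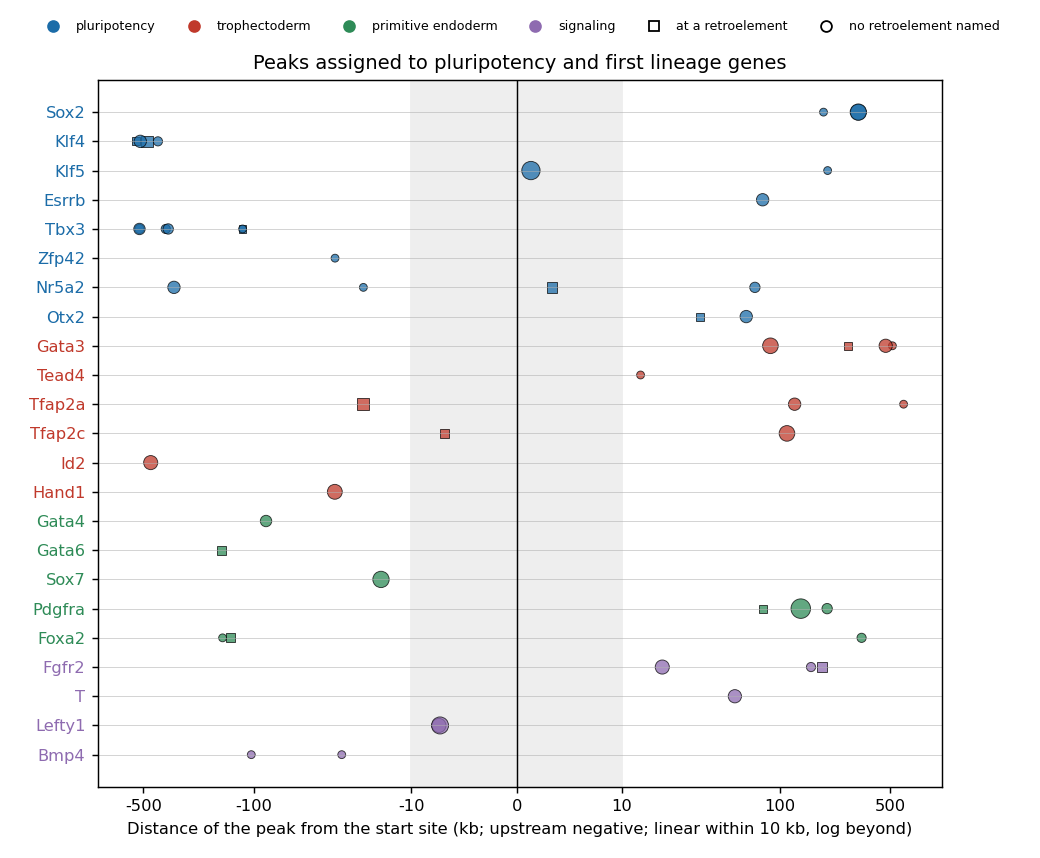
Distance of each of the 52 peaks from the start site of its gene (x axis, kb, upstream negative, linear within 10 kb and logarithmic beyond), 1 row per member; colour gives the role, squares mark peaks at a SINE, LINE or LTR, and larger symbols are higher Dnmt1-Dam peaks. Within 10 kb of a start site (shaded) stand only peaks of Klf5, Nr5a2, Tfap2c and Lefty1, and the peaks of Klf4 and Tbx3 are all upstream while those of Sox2 and Gata3 are all downstream.

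Retroelements, which are named in the series title, were named only at member peaks of modest height. A SINE, LINE or LTR was named at 10 of 47 member peaks (21.3%, 10.7 to 35.7), an interval that includes the 35.0% of all peaks and the 31.2% (22.0 to 41.6) of the other regulators. Among intergenic peaks it was 9 of 39 (23.1%, 11.1 to 39.3), against 38.6% of all intergenic peaks. SINEs made up 7, LTR elements 2 and LINEs 1. The 10 retroelement peaks had Dnmt1-Dam heights of 7 to 10 (median 7.5), while the 37 other member peaks ranged from 7 to 21 (median 10). The 17 member peaks at 11 or more thus named none, a limit that was set just above the highest retroelement peak of the members, so the count of 0 is a description and bounds no share. In the whole list, 34.7% of peaks at 11 or more and 35.1% of lower peaks named a retroelement. The 2 retroelement peaks of the AP-2 genes, at 8 and 10, were also below 11. No member peak was in a CpG island or its shore. For each class, the interval of 0 of 47 reaches 7.55% and includes the shares of all peaks, 0.559% in islands and 3.5% in shores. A lack of such peaks was thus not detectable with this number. In a shelf were 2 of 47 (4.26%, 0.520 to 14.5), or 4 of 52 (7.69%) with the AP-2 genes, against 2.55% of all peaks.

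Several members held more than 1 peak. Of the 23 members with a peak, 14 had at least 2 (60.9%), against 37.0% of all genes with a peak and 40.8% of the other regulators with one. At least 4 were held by 4 members (17.4%), against 8.02% of all genes and 12.2% of the other regulators. Intervals were not computed for these shares. The count includes neighbors within 1 kb: 8 of the 47 peaks fell into 4 such pairs, at Sox2, Lefty1 and Tbx3. With these merged, Lefty1 had 1 run, Sox2 2 and Tbx3 4.

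The 15 members without a row may have peaks nearby that were assigned to a neighbor. In the gene order of the RefSeq table, 13 of their 30 immediate neighbors (43.3%) had an assigned peak, where the background of all genes was 22.7%, and 10 of the 15 members had at least 1 such neighbor. Dppa3, an oocyte factor next to Nanog, had a peak of 9 in Dnmt1-Dam and 1 in Dam-only, 28.4 kb beyond its end. Gli2, next to Tfcp2l1, had 14 against 1 at 24.2 kb upstream of Gli2. Rp1, next to Sox17, had 22 against 4 at 286 kb beyond the end of Rp1. These distances are from the neighbor. The distance to the member was not measured, and a peak may lie on the far side of the neighbor. None of these peaks is therefore shown to lie near the member. Neither neighbor of Pou5f1, Lin28a, Cdx2, Hnf4a or Fgf4 had a peak.

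Of 90 other genes of the same pathways, 35 had an assigned peak (38.9%, 28.8 to 49.7) and 11 (12.2%, 6.26 to 20.8) had one inside the gene, against backgrounds of 22.7% and 11.7%. Peaks over 100 kb away were assigned to 10 (11.1%, 5.46 to 19.5), at a background of 4.73%. The 20 other pluripotency genes included 9 with a peak, none inside the gene. The highest was assigned to Tdgf1, the Nodal co-receptor (22 in Dnmt1-Dam against 2 in Dam-only, 23.1 kb beyond the gene). Next were those of Il6st, the signal-transducing subunit of the LIF receptor (18 against 2, 38.4 kb upstream), and Dppa4 (14 against 4). The Dppa4 peak lay 867 kb upstream, in an LTR element.

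The 20 other trophectoderm genes included 8 with a peak, led by Ascl2, a trophoblast factor (11 against 3, 21.6 kb beyond the gene). Tead1 followed (10 against 3, inside the gene), then Krt18, Nf2 and Dppa1 at 9 against 1 each. The Krt18 and Nf2 peaks lay inside the gene and the Dppa1 peak 1.23 kb upstream. The 20 other primitive endoderm genes included 7, and 5 of these had a peak inside the gene. The highest were the laminin chain genes Lamb1 (15 against 4), Lamc1 (12 against 1) and Lama1 (11 against 2), whose products form the basement membrane that this lineage secretes. The 7 members of that lineage had no peak inside a gene. Their interval reaches 41.0% and includes the 25% (8.66 to 49.1) of these 20 genes, so no difference can be read from it, and none was tested. The 30 other signaling genes included 11 with a peak, led by Wnt3 (63 against 1, 11.6 kb upstream) and the BMP effector Smad5 (12 against 1, inside the gene). Next came Smad3, which transmits Nodal signals (11 against 1, inside the gene). Spry4, which restrains FGF signals, had 11 against 3 at 25.7 kb beyond the gene.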

How the data were processed

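CASAVA, BWA and build mm9 are named in the submitters' processing notes. Peak calling, duplicate handling and depth are not stated. The authors deposited 1 list with a signal height per library, treated as signal and not as reads. Per the labels, libraries had 15 PCR cycles.

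Members were matched by gene symbol, then through a RefSeq gene table (GRCm38.p6, used for names and gene order) on accession or gene ID. The background is its 21035 genes with a curated messenger RNA accession. A gene absent from the authors' annotation could not receive a peak. The location class of 8226 of 8226 peaks follows from distance. Shares have exact 95% intervals (scipy 1.17.1), which treat peaks as independent. Runs are peaks within 1 kb. Every member is named. The members and lists were chosen with earlier results of these data known. Distance, interval and merging steps were tested on simulated data. Alternatives changed height limits, gene assignment, names, distance, repeat counting, pseudocount and scaling.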

Additional observations from a re-analysis of the deposited data

How the results depend on the processing

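Of 46 recalculated values of 8 results, 35 stayed within the main interval, spread or 1.5 times the count, and 11 did not. Members with a peak were 21 by current symbol, 5 inside the gene and 6 within 10 kb. At Dnmt1-Dam heights of 15 or more, 6 members and 7 peaks were left, and at 9 or more 24 peaks, by construction. At 15 or more, the share over 100 kb from the gene was 28.6% (2 of 7 peaks), against 20.6% of all such peaks, the median height 16 and the median log2 ratio 1.13. For member peaks of any height, the median log2 ratio of unscaled heights was 2.17, the same as for all peaks. The share at a retroelement was 8.33% at 9 or more (2 of 24 peaks, all peaks 35.0%) and 0% at 15 or more (0 of 7, all peaks 36.0%). Both rest on few peaks, and the highest retroelement peak of the members was 10. The cause was not tested. Leaving out Tbx3, a setting added after the values were seen, gave 46.3% over 100 kb. No paired analysis was possible because each group is 1 library.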

Other observations

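Sox7 lay in the most crowded surroundings of any member. Within 500 kb of its start site on chromosome 14 there were 17 peaks, assigned to 7 genes, a count reached by 4 of the 4766 genes with a peak. Of these, 16 were assigned to other genes, with 7 at Mtmr9 (heights 9 to 14 in Dnmt1-Dam), 3 at Msra (8 to 10), 2 at Xkr6 (7 to 9) and 2 at Pinx1 (7 to 8). The Sox7 peak, at 16, was the highest of the 17. Gata4, on the same chromosome, had 11 peaks within 500 kb, and 10 of them were assigned to other genes. The windows of Gata4 and Sox7 overlap, so the same peak may be counted for both. At the other end, Gata6 had 1 peak within 500 kb, and Otx2 and Tead4 had 2 each.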
